A study of Neogale vison with 6 samples.

Results

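The 9 genes examined here, called the members, make, sense and break down prostaglandin E2, and they were taken from the RNA-seq counts of mink lung Mv1Lu cells by their symbols. They are PLA2G4A, PTGS1, PTGS2, PTGES, PTGES2, PTGES3, PTGER2, PTGER4 and HPGD. Of the 24526 genes in the table, 8 carried a symbol of this list, and HPGD was absent as a symbol. PTGS2 was chosen by its large difference between the cholesterol-depleted and control libraries, and the other genes were added for their roles with the same libraries already known. Differences of these 9 genes between the groups are therefore given as a description, with no test. The data comprised 3 libraries of untreated Mv1Lu cells (control) and 3 of cells subjected to cholesterol depletion (CD). Depletion lasted 16 h and combined lovastatin, a statin that blocks HMG-CoA reductase, with mevalonate, the product of that enzyme, each at 50 μM. Their serum, at 10%, was depleted of lipoproteins (LPDS). Because statin, mevalonate and serum changed together, their effects cannot be told apart, and a single cell line was used.

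Prostaglandins are lipid signals made from arachidonic acid. Cytosolic phospholipase A2 cuts this fatty acid from membrane phospholipids, and the cyclooxygenases convert it into prostaglandin H2. Terminal synthases then make the separate prostanoids, which leave the cell, act on G protein-coupled receptors and are inactivated by 15-hydroxyprostaglandin dehydrogenase. PTGS1 is known as the cyclooxygenase present in many resting tissues, and PTGS2 as the inducible enzyme that growth factors, cytokines and stress can switch on. In the lung, prostaglandin E2 is a main product of the epithelium and is known to relax airways and restrain fibroblasts.

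Reads counted on genes numbered 13473820 to 18633764 per library, and 29.3% to 47.2% of all reads were not assigned to a gene. Levels are given as CPM, the reads of a gene per 1000000 reads of its library after TMM scaling, and a value with an error is the mean ± SD of 3 libraries. Nothing in the labels states that the 3 libraries of a group came from separate cultures, so their spread may be technical. Of the epithelial markers, KRT19, an epithelial keratin, averaged 936 ± 66.9 CPM in control libraries and 458 ± 77.1 CPM in those of CD cells, whereas CDH1 and EPCAM, 2 defining epithelial genes, had only 8 and 7 reads over the control and 18 and 2 over the CD libraries. The 7 fibroblast markers found summed to 310 to 387 CPM in control and 183 to 232 CPM in CD libraries, with 4 of the 5 tested called lower and PDGFRA not called (edgeR, FDR under 0.05), where 22.9% of all genes tested were called lower. COL1A2 averaged 212 ± 24.6 CPM in control against 164 ± 19.5 CPM in CD, COL3A1 97.3 against 29.5 CPM, COL1A1 23.5 against 12.3 CPM and PDGFRB 7.53 against 3.56 CPM. The junction gene TJP1 averaged 200 CPM in control, OCLN 6.73 CPM, and CLDN4 0.603 CPM in control and 7.03 CPM in CD. DCN and LUM, of the fibroblast list, were below the filter with 3 and 7 reads in control and 15 and 35 in CD. The endothelial receptor gene TEK averaged 215 CPM in control and 102 CPM in CD, whereas the endothelial genes PECAM1, CDH5 and VWF had 0, 0 and 5 reads in control and 11, 1 and 56 in CD, of which VWF was called higher, like 24.8% of all genes tested. Since CDH1 and EPCAM were near 0 and the markers of each type were mixed, the cells are called Mv1Lu cells throughout. Summed over 6 leukocyte markers the level was 5.64 to 6.89 CPM in control and 21.8 to 26.9 CPM in CD libraries, but this sum was carried by CD68, CSF1R and CD14, while the defining leukocyte genes PTPRC and ITGAM each had at most 1 read in a group.

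PTGS2, the inducible cyclooxygenase (ENSNVIG00000009282), was all but undetected in control cells and well above detection in each CD library. Control replicates 1, 2 and 3 held 1, 2 and 1 reads of it, against 342, 270 and 174 reads in CD replicates 1, 2 and 3. On the CPM scale these counts were 0.0716, 0.145 and 0.0551 in control and 21.0, 16.6 and 12.5 in CD libraries. The groups did not overlap, and the lowest CD library lay far above the highest control library. Over the libraries of each group it had 4 reads without and 786 with cholesterol depletion, and the ratio of the depth-scaled totals was 194, with a 95% Clopper-Pearson interval of 75.6 to 715 that covers counting error only. The fitted log2 fold change was 7.46 (standard error 0.39), a value that depends on the small prior count that edgeR adds to the near-empty control group. Only 4 of the 12148 genes tested had a higher fitted log2 fold change. From bulk RNA, more expressing cells and more RNA per cell cannot be told apart.

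The PTGS2 level varied among the CD libraries. The 95% Poisson interval of the CPM was 18.8 to 23.4 in CD replicate 1 and 10.7 to 14.5 in CD replicate 3, so that these intervals, which cover counting error only and treat reads as independent molecules, did not overlap. CD replicates 1 and 3 also stood at the ends of the second principal component of log2 CPM, which held 12.3% of the variance, and the part of this difference in the PTGS2 values was not tested. The gene was high in all 3 CD libraries all the same. With each library left out in turn, its log2 fold change lay between 7.17 and 7.89.

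PLA2G4A, the cytosolic phospholipase A2 that supplies arachidonic acid (ENSNVIG00000009222), had the next largest log2 fold change of the 6 members with enough reads for a fit. In the order of the replicates, the control libraries held 2.65, 2.39 and 2.31 CPM and the CD libraries 11.9, 10.8 and 10.4 CPM. The groups were tight and did not overlap. The fold change was 4.50, or 2.17 on the log2 scale (standard error 0.19). The coefficient of variation among the CD libraries was 7.26% for PLA2G4A and 25.4% for PTGS2. CD replicate 1 was the highest and CD replicate 3 the lowest CD library for both genes. For PLA2G4A their Poisson intervals overlapped, with 10.3 to 13.7 CPM in CD replicate 1 and 8.75 to 12.2 CPM in CD replicate 3. The order of the PLA2G4A values is thus within counting error.

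PTGS1, the other cyclooxygenase (ENSNVIG00000010635), was also higher in every CD library, by a far smaller factor. It measured 2.65, 2.46 and 3.36 CPM in control replicates 1, 2 and 3 and 7.13, 7.67 and 8.50 CPM in the CD replicates. The groups did not overlap, and the fold change was 2.73 (log2 fold change 1.45, standard error 0.21). Here CD replicate 3 was the highest and CD replicate 1 the lowest CD library, the reverse of PTGS2. Their Poisson intervals overlapped, with 5.89 to 8.55 CPM in CD replicate 1 and 7.04 to 10.2 CPM in CD replicate 3. This order is thus within counting error. PTGS1 had 132 reads in the control group, in which PTGS2 had 4.

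**Figure D1:**
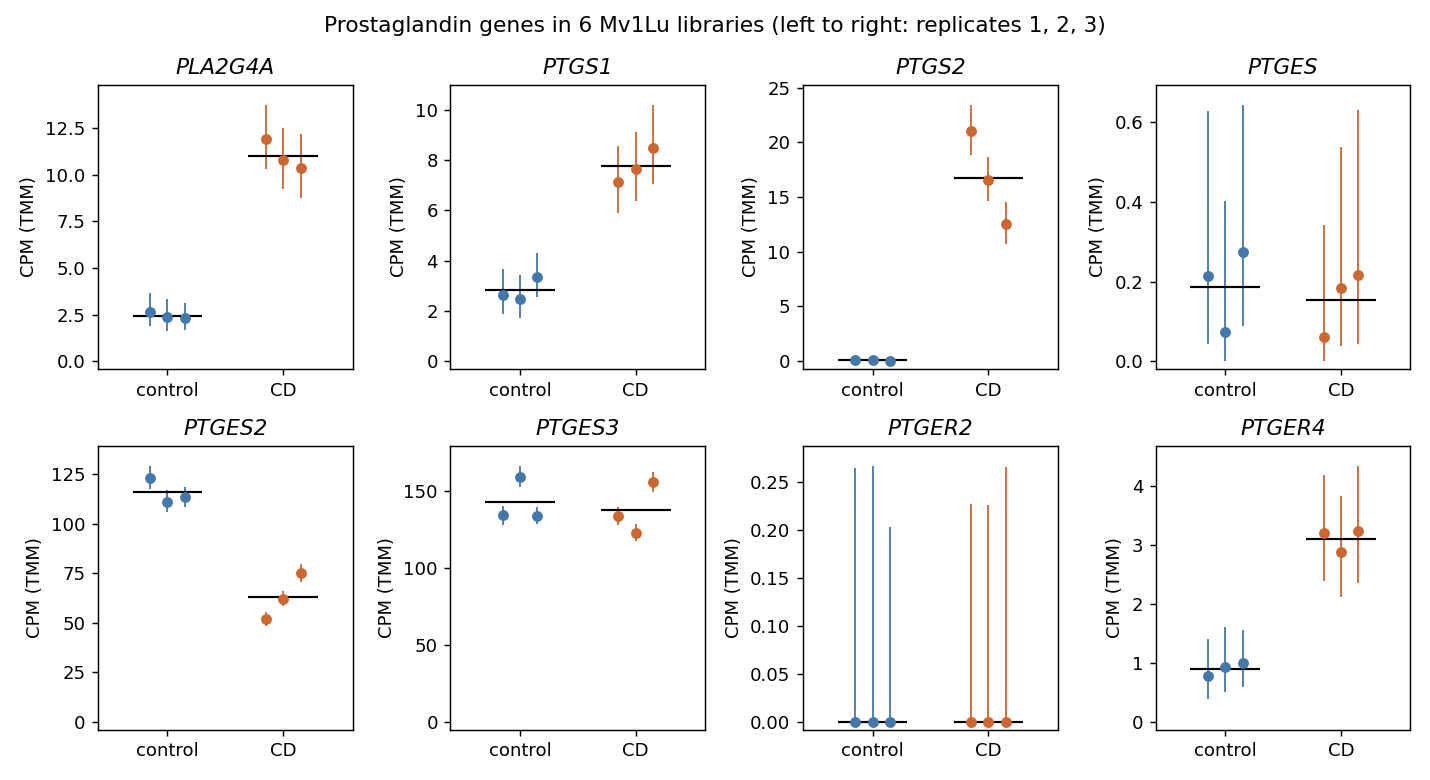
Level of each of the 8 genes found, in CPM after TMM scaling, in 3 control and 3 CD libraries (points, replicates 1 to 3 from left to right); vertical lines are 95% Poisson intervals for counting error, horizontal bars are group means, and each panel has its own axis. PTGS2 moves from 0.0904 CPM in control to 16.7 CPM in CD on average, PLA2G4A, PTGS1 and PTGER4 lie higher and PTGES2 lower in all CD libraries, and PTGER2 has no reads.

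PTGES, PTGES2 and PTGES3 are the terminal synthases that turn prostaglandin H2 into prostaglandin E2. PTGES, the microsomal synthase that is often induced together with PTGS2 in inflammation (ENSNVIG00000016663), had 3, 1 and 5 reads without depletion and 1, 3 and 3 reads with it. These groups overlapped, and the gene was too low to be tested. The ratio of its depth-scaled totals was 0.769, with a 95% Clopper-Pearson interval of 0.243 to 2.32 that covers counting error only.

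PTGES2, a membrane-associated synthase (ENSNVIG00000010932), was lower in CD cells. Control replicates 1, 2 and 3 were at 123, 111 and 113 CPM, and CD replicates 1, 2 and 3 at 51.8, 62.1 and 74.9 CPM. No CD library reached the lowest control library. The log2 fold change was -0.88 (standard error 0.14), which is 1.84-fold lower. The CD libraries spread more than the control libraries, with a coefficient of variation of 18.4% against 5.46%, and CD replicate 1, the highest for PTGS2, was the lowest for PTGES2.

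PTGES3, the cytosolic synthase that is also the HSP90 co-chaperone p23 (ENSNVIG00000000620), was at 134, 160 and 134 CPM in control and 134, 123 and 156 CPM in CD replicates 1, 2 and 3. The groups overlapped widely. The log2 fold change was -0.05, with a 95% interval from -0.34 to 0.23, which leaves room for a change of modest size in either direction. Its sign turned without control replicate 2, when the log2 fold change was 0.0305.

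Of the prostaglandin E2 receptors, the members are PTGER2 and PTGER4, which both couple to Gs and raise cAMP. PTGER4 (ENSNVIG00000000646) rested on few reads, 11, 13 and 18 in control replicates 1, 2 and 3 against 52, 47 and 45 in the CD replicates. This corresponded to 0.788, 0.940 and 0.992 CPM in control and 3.20, 2.88 and 3.24 CPM in CD cells. The groups did not overlap and each was narrow, and the fold change was 3.39 (log2 fold change 1.76, standard error 0.24). Within each group the Poisson intervals of the libraries overlapped, so differences among them are within counting error. PTGER2 (ENSNVIG00000001975) had 0 reads in all 6 libraries, which allows a level of up to 0.0653 CPM over the control and 0.0646 CPM over the CD group, taking 3 reads as the limit and counting error only.

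No row had the symbol HPGD, the gene of the dehydrogenase that starts the breakdown of prostaglandins. A row with the symbol PGDH (ENSNVIG00000024525) is described in the table as that enzyme, and it had 0 reads in each library. The same limits as for PTGER2 apply to it.

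Of the 8 genes found, 6 had enough reads to be tested across all genes, and PTGES and PTGER2 did not. PTGS2 passed this filter through its CD libraries alone. The libraries of the groups did not overlap in 5 of the 6, against 58.0% of all 12148 genes tested, and since the genes were taken with this contrast known, nothing is read from this count. In the order of fitted fold changes, PLA2G4A, PTGER4 and PTGS1 stood at ranks 268, 433 and 663 of 12148. PTGES3 and PTGES2 stood at ranks 6849 and 10731.

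**Figure D2:**
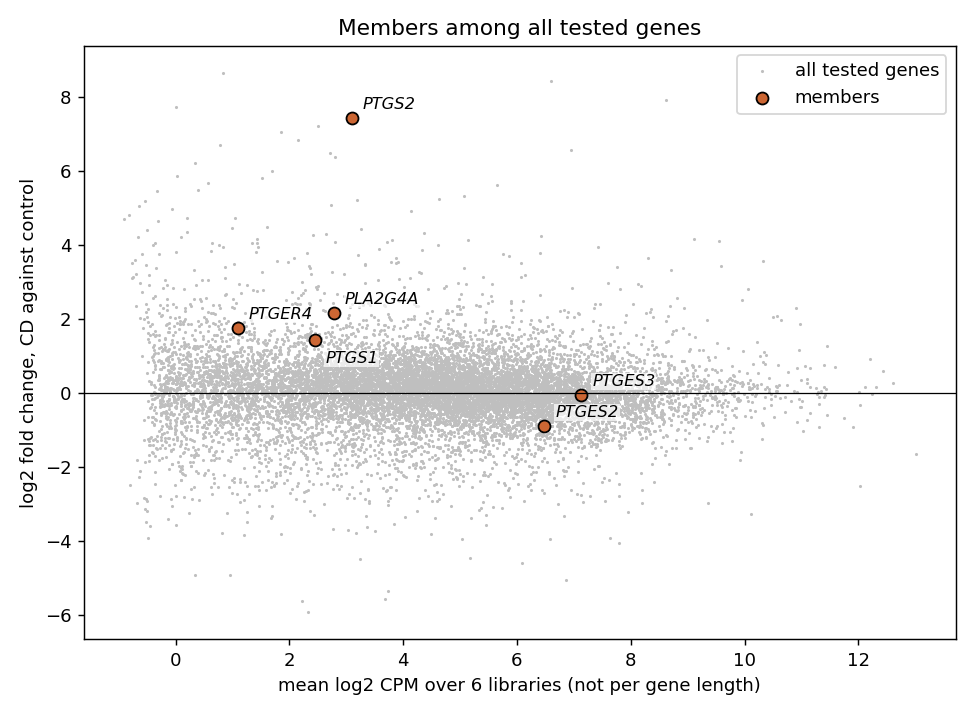
Fitted log2 fold change of CD against control (y axis) over the mean log2 CPM of 6 libraries (x axis, not per gene length) for all 12148 genes tested (grey) and the 6 tested members (orange). PTGS2 stands at 7.46, with only 4 genes above it, while PTGES3 lies near 0 and PTGES2 at -0.88.

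The tested members also differed in how closely their CD libraries lay together. The CD libraries of PTGER4 and PLA2G4A stayed between 92.8% and 108% of the CD mean, and those of PTGS1 between 91.8% and 109%. Those of PTGES2 ran from 82.3% to 119%, and those of PTGS2 from 75.0% to 126%. CD replicate 3 was the lowest CD library for PTGS2 and PLA2G4A, and the highest for PTGS1, PTGES2, PTGES3 and PTGER4. For PTGS2, PTGES2 and PTGES3, the Poisson interval of CD replicate 3 overlapped neither of the other CD intervals. For PLA2G4A, PTGS1 and PTGER4 all CD intervals overlapped, so the order of their CD libraries is within counting error. The spread of these low-count genes is therefore not read as a trait of the gene.

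**Figure D3:**
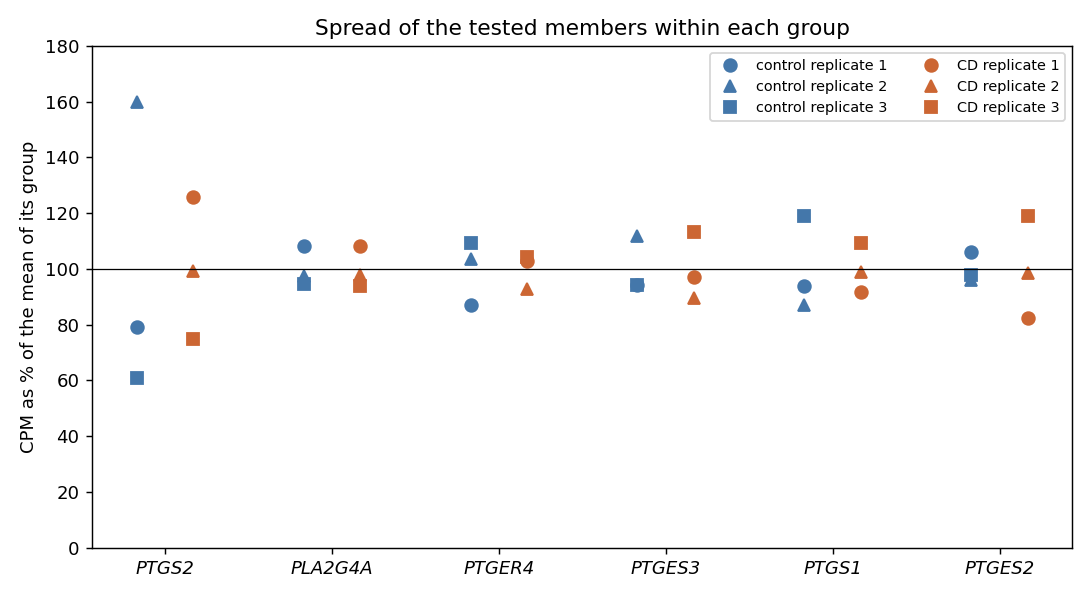
CPM of each library as a percentage of the mean of its own group (y axis) for the 6 tested members, control libraries in blue and CD libraries in orange, with a symbol for each replicate. CD replicate 1 stands at 126% for PTGS2 and at 82.3% for PTGES2, and CD replicate 3 at 75.0% and 119%; the wide control values of PTGS2 come from 1 or 2 reads per library.

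PTGS2 and PLA2G4A are neighbors in the RefSeq annotation of mink assembly ASM_NN_V1, which is not the assembly used for the counts, so no coordinates are given. On the other side of PTGS2 this annotation places PDC, ODR4 and TPR. PDC, which encodes the photoreceptor protein phosducin, had no reads in the 6 libraries. ODR4 averaged 7.35 ± 0.976 CPM in the control libraries against 7.75 ± 0.766 CPM after depletion (log2 fold change 0.08, standard error 0.19). TPR, a protein of the nuclear pore basket, averaged 78.7 ± 9.44 CPM without and 65.9 ± 13.8 CPM with depletion, a log2 fold change of -0.26 (standard error 0.16). Neither ODR4 nor TPR was called (adjusted p = 0.76 and 0.22, edgeR), and their groups overlapped. Beyond PLA2G4A lie 2 loci without a gene name, which could not be found in the count table.

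The rest of the pathway was followed through 8 lists of genes written from general knowledge, with earlier results of these libraries known, which hold 75 genes without the members. Of these, 60 were found by symbol and 39 were tested, and 16 were called higher and 6 lower in CD (quasi-likelihood test of edgeR, Benjamini-Hochberg FDR under 0.05). In 22 of the 39 the groups did not overlap. Without control replicate 1, 3 instead of 6 were called lower. Of all 12148 genes tested, 47.7% were called, 24.8% higher and 22.9% lower, and 58.0% did not overlap. The median log2 fold change was 0.27 over the 39 genes and 0.06 over all genes tested.

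**Figure D4:**
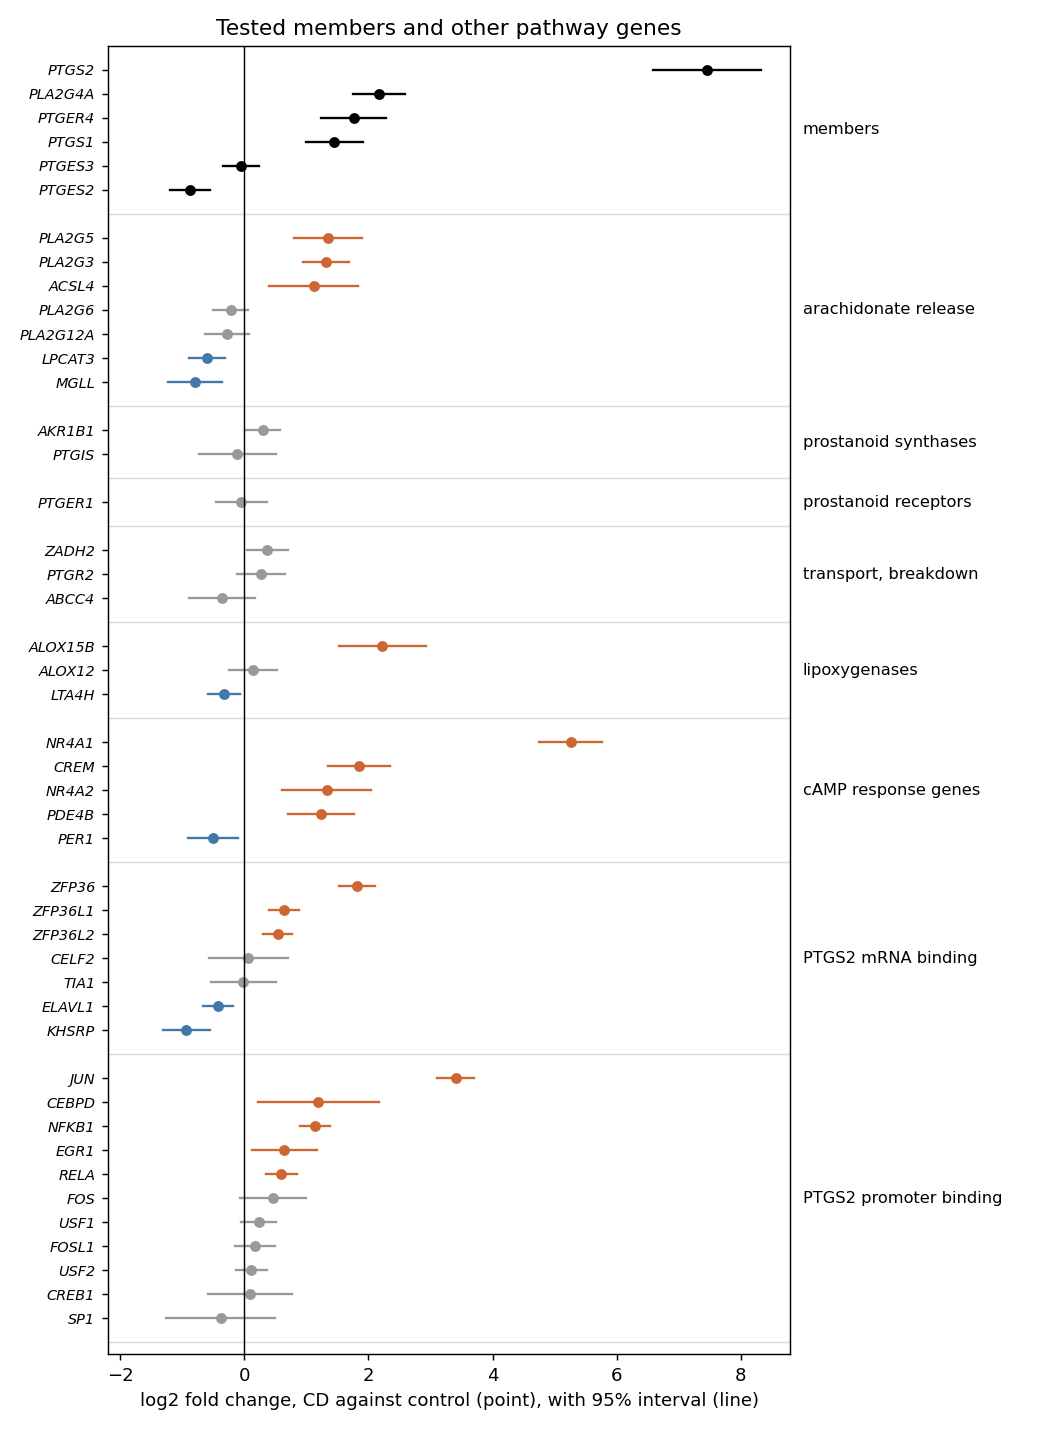
Fitted log2 fold change of CD against control (points) with its 95% interval (lines) for the 6 tested members (black) and 39 other pathway genes by list (orange, called higher; blue, called lower; grey, not called; edgeR at an FDR under 0.05). PTGS2 at 7.46, NR4A1 at 5.26 and JUN at 3.41 lie farthest to the right.

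Among enzymes that release or channel arachidonic acid, 7 of 13 found genes were tested. In CD, 3 of them were called higher and 2 lower, where 24.8% of all genes tested were called higher and 22.9% lower. The median of the list was -0.22 on the log2 scale, against 0.06 over all genes tested. The secreted phospholipases PLA2G3 and PLA2G5 rose. PLA2G3 averaged 165 ± 32.8 CPM in control libraries and reached 412 ± 64.3 CPM after depletion (log2 fold change 1.32, adjusted p = 1.53e-04, edgeR), and PLA2G5 averaged 1.64 ± 0.0961 CPM and reached 4.20 ± 0.927 CPM (log2 fold change 1.35, adjusted p = 0.00136, edgeR). ACSL4, which activates arachidonic acid to its CoA ester, was at 38.0, 18.0 and 14.4 CPM in CD replicates 1, 2 and 3 against 9.64 to 11.9 CPM in control. All 3 values were above control, but CD replicate 1 stood far above the other CD libraries. Its log2 fold change of 1.12 (adjusted p = 0.0166, edgeR) was 0.59 without CD replicate 1, and the call was lost without control replicate 3 (adjusted p = 0.0754, edgeR). MGLL, the lipase that yields arachidonic acid from 2-arachidonoylglycerol, fell (log2 fold change -0.79, adjusted p = 0.00798, edgeR), as did LPCAT3, which puts arachidonic acid into phospholipids (log2 fold change -0.60, adjusted p = 0.00362, edgeR). PLA2G6 and PLA2G12A were not called.

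The enzymes of the other prostanoids gave no call. Of 5 genes found, AKR1B1 and PTGIS were tested. PTGIS, the prostacyclin synthase, was at 61.0, 49.2 and 66.0 CPM in control and at 71.0, 62.8 and 29.0 CPM in CD replicates 1, 2 and 3. CD replicates 1 and 2 lay within or just above the control range, and CD replicate 3 below it. The log2 fold change was -0.11 (standard error 0.28, adjusted p = 0.76, edgeR) and turned to 0.15 without CD replicate 3. AKR1B1, an aldose reductase that can form prostaglandin F2α, had a log2 fold change of 0.30 (adjusted p = 0.0764, edgeR). HPGDS had no reads, and TBXAS1, the thromboxane synthase, had 1 read in each group.

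PTGER1, the remaining detected receptor of prostaglandin E2, differed from PTGER4 in that its groups overlapped. The control libraries averaged 12.0 ± 0.469 CPM and the CD libraries 11.6 ± 2.34 CPM (log2 fold change -0.05, standard error 0.19, adjusted p = 0.85, edgeR). The sign of this value turned without CD replicate 1, when it was 0.0841. PTGER3, the last receptor of this ligand, had no reads. Of the receptors for other prostanoids found, PTGDR had no reads, PTGIR had 1 read in all, and TBXA2R, the thromboxane receptor, had 9 reads in control and 36 in CD cells, below the filter.

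Transport and breakdown gave no call in 3 tested genes. ABCC4, which exports prostaglandins, had a log2 fold change of -0.36 (adjusted p = 0.24, edgeR), and the prostaglandin reductases PTGR2 and PTGR3, the latter found under its older symbol ZADH2, had log2 fold changes of 0.27 and 0.37 (adjusted p = 0.22 and 0.0657, edgeR). SLCO2A1, the uptake carrier for prostaglandins, had 1 read in control and 4 in CD cells. In the lipoxygenase branch, which also uses arachidonic acid, 1 of 3 tested genes was called higher and 1 lower. Of all genes tested, 24.8% were called higher and 22.9% lower. ALOX15B, a lipoxygenase of epithelia and macrophages, averaged 0.878 ± 0.326 CPM without depletion and rose to 4.15 ± 0.970 CPM with it (log2 fold change 2.22, adjusted p = 2.98e-04, edgeR). LTA4H, the leukotriene A4 hydrolase, fell slightly (log2 fold change -0.32, adjusted p = 0.0414, edgeR), and this call was lost without any of control replicates 1, 2 and 3 or CD replicates 1 and 2 (adjusted p = 0.158, 0.0703, 0.125, 0.0913 and 0.0818, edgeR). The LTA4H call was also lost with the replicate block, upper-quartile scaling and no filter on low counts (adjusted p = 0.118, 0.0537 and 0.0654, edgeR).

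Genes known to respond to cAMP, the messenger of PTGER2 and PTGER4, were chosen with earlier results known. All 5 tested were called, 4 higher and 1 lower, where 47.7% of all genes were called, 24.8% higher and 22.9% lower. Their median was 1.32 on the log2 scale, against 0.06 over all genes. Because of how the list was chosen, nothing is read from this count or median. NR4A3 and PDE4D were below the filter, and SIK1 was not found by symbol. NR4A1, an orphan nuclear receptor, rose from 1.65, 0.795 and 1.27 CPM in control to 51.4, 46.7 and 45.0 CPM in CD libraries (log2 fold change 5.26, standard error 0.23, adjusted p = 2.68e-07, edgeR). The change of its relative NR4A2 was smaller, with means of 0.581 ± 0.195 CPM in control and 1.47 ± 0.247 CPM in CD libraries (log2 fold change 1.32, adjusted p = 0.00730, edgeR). CREM, a cAMP-responsive transcription factor, and PDE4B, which degrades cAMP, rose with log2 fold changes of 1.85 and 1.23 (adjusted p = 1.16e-04 and 0.00193, edgeR). PER1, a clock gene with a cAMP-responsive promoter, fell (log2 fold change -0.50, adjusted p = 0.0402, edgeR), but was not called without control replicate 1, 2 or 3 (adjusted p = 0.0854, 0.0659 and 0.156, edgeR). Nor was PER1 called with upper-quartile scaling or total counts (adjusted p = 0.051 and 0.071, edgeR). These genes also answer to other signals.

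All 7 genes for proteins known to bind the PTGS2 mRNA were tested, and 3 were called higher and 2 lower. Among all genes tested, 24.8% were called higher and 22.9% lower. The median of the 7 genes was 0.07 on the log2 scale, against 0.06 over all genes tested. ZFP36, which promotes the decay of mRNAs with AU-rich elements, rose from a control mean of 24.7 ± 1.07 CPM to a CD mean of 87.0 ± 8.73 CPM (log2 fold change 1.82, standard error 0.13, adjusted p = 3.26e-06, edgeR). Its relatives ZFP36L1 and ZFP36L2 rose less, with log2 fold changes of 0.63 and 0.54 (adjusted p = 8.93e-04 and 0.00230, edgeR). KHSRP, another decay factor, fell (log2 fold change -0.93, adjusted p = 0.00134, edgeR), and so did ELAVL1, which stabilizes such mRNAs (log2 fold change -0.42, adjusted p = 0.00981, edgeR). The call of ELAVL1 was lost without control replicate 1 (adjusted p = 0.0517, edgeR). CELF2 and TIA1 were not called.

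Of 11 tested genes for transcription factors known to bind the PTGS2 promoter, 5 were higher and none lower at an FDR under 0.05 in edgeR. Over all genes tested, 24.8% were called higher and 22.9% lower. The median of the 11 genes was 0.46 on the log2 scale, against 0.06 over all genes tested. JUN, a subunit of AP-1, went from 37.7, 39.7 and 34.7 CPM in control to 342, 429 and 416 CPM in CD libraries (log2 fold change 3.41, standard error 0.14, adjusted p = 1.56e-07, edgeR). Its partner FOS was not called (log2 fold change 0.46, adjusted p = 0.14, edgeR). The NF-κB subunits NFKB1 and RELA rose with log2 fold changes of 1.14 and 0.60 (adjusted p = 2.22e-05 and 0.00149, edgeR). CEBPD and EGR1, with log2 fold changes of 1.19 and 0.64, were close to the threshold (adjusted p = 0.0462 for each, edgeR), and their groups overlapped. CEBPD was called in only 3 of 14 alternative settings and dropped to 0.71 on the log2 scale when CD replicate 3 was left out (adjusted p = 0.415, edgeR). Its call was also lost without control replicates 2 and 3 and CD replicate 2 (adjusted p = 0.116, 0.169 and 0.104, edgeR). EGR1 was not called without control replicates 2 and 3 or CD replicates 1 and 2 (adjusted p = 0.17, 0.177, 0.117 and 0.0842, edgeR), nor with total counts (adjusted p = 0.0607, edgeR). CREB1, FOSL1, SP1, USF1 and USF2 were not called.

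Over the 6 libraries, the named genes whose log2 CPM followed PTGS2 most closely were ARFGAP3, ANTXR2, L1CAM, NFKBIZ and PYGL, each with a Pearson r between 0.9987 and 0.9995. Because the libraries fall into 2 groups, such an r mainly reflects the difference between the groups together with the order of the CD libraries, and 183 of 10083 genes with a symbol exceeded 0.99. NFKBIZ, a nuclear IκB protein, was at 2.22, 2.46 and 1.76 CPM in control and at 32.0, 26.7 and 21.5 CPM in CD replicates 1, 2 and 3. L1CAM, a cell adhesion molecule, averaged 0.754 ± 0.170 CPM without and 12.8 ± 2.97 CPM with depletion. As for PTGS2, CD replicate 1 was the highest and CD replicate 3 the lowest CD library for NFKBIZ, L1CAM, ARFGAP3, ANTXR2 and PYGL. Genes picked by their r with PTGS2 tend to share this order, so nothing is read from it. Among the members, the r with PTGS2 was 0.997 for PLA2G4A, 0.989 for PTGER4, 0.960 for PTGS1, -0.207 for PTGES3 and -0.962 for PTGES2, over the same 6 libraries.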

How the data were processed

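The authors made Nextera XT libraries from the Poly(A) mRNA, trimmed the reads with fastp 0.20.1 and mapped them to mink with STAR 2.7.2a, per the methods and the labels; the authors compared expression with DESeq2 1.30.1. The deposited table holds raw read counts per gene. The counting program and its strand setting are not given in the sources used here, so overlapping genes are uncertain. Its 4 rows of totals without a gene (unmapped, multimapping, without a feature, ambiguous) were left out. The 6 deposited normalized files were not used here: they hold the same reads, and their identifiers follow another row order than the count table. Whether each value belongs to the identifier beside it is not established here.

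Differences were fitted by edgeR 4.0.16 under R 4.3.3 (filterByExpr with a minimum count of 10 and a total of 15, TMM, robust glmQLFit and glmQLFTest with condition as the only term). The code was first run on simulated data with far fewer changed genes than were called here. That run does not check the scaling or FDR for these data. P-values were adjusted by Benjamini-Hochberg over all tested genes and called at 0.05. The standard error was the absolute log2 fold change over the square root of F (median 0.18). With 3 libraries against 3, an exact permutation test cannot go below p = 0.1. Poisson and Clopper-Pearson intervals (95%) cover counting error only, and limits for 0 reads take 3 reads.

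The members and lists were chosen with earlier results of these data known. Genes named are the members, the 4 called genes per list with the largest change, the 3 neighbors on each side of PTGS2 and the 5 genes most correlated with it (log2 CPM, prior count 2). The fifth called gene of a list, genes of a list that were not called or tested, and single marker genes were named after their values were seen. Another gene of the leukocyte list is not reported here. Alternatives were DESeq2 1.42.0, limma-voom (limma 3.58.1), other scalings and filters, a replicate block and each library left out.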

Additional observations from a re-analysis of the deposited data

How the results depend on the processing

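Over 14 alternative settings, the log2 fold change of PTGS2, given as a description like those of the other members, lay between 7.14 (limma-voom) and 7.89 (without control replicate 2); PTGER4 was below the filter of 50 counts in 3 libraries. The log2 fold change of PTGES3 lay between -0.19 and 0.0305 with each library left out; the positive value was that without control replicate 2. Signs also turned for PTGIS without CD replicate 3 (0.15, range with a library left out -0.34 to 0.15) and PTGER1 without CD replicate 1 (0.0841, range -0.25 to 0.0841), neither of which was called; the cause was not tested. Of 334 values recomputed for single genes that are no members, 301 kept direction and side of the threshold, 31 lost the call and 2 turned sign. Other pathway genes called lower numbered between 3 and 7 with a library left out, where fewer libraries enter the fit. With the replicate block, 2772 genes were called higher and 2636 lower in place of 3016 and 2784. Same-numbered libraries did not deviate together (correlations of deviations from the group means -0.02, -0.33 and -0.18), so the numbers were not taken to pair them. The near-empty control group limits the fold of PTGS2, and PTGES, PTGER2 and TBXA2R are too low for a test at this depth.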
